A study of Mus musculus with 9 samples.

Results

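Among 4674 regions that drove reporter RNA in mouse embryonic stem cells kept with LIF (mESC enhancers), 544 had another such region close by and are described here as clustered mESC enhancers. Members were chosen by position alone: the midpoint of a region had to lie within 12500 bp of the midpoint of another region of the list on the same chromosome. Chains of such neighbours were joined into 261 clusters, and the 4130 regions with no neighbour at that distance are called solitary. The clustered regions made up 11.6% of the list (95% Wilson interval 10.8 to 12.6%). The list itself came from the reporter signal of LIF cells over the plasmid library. Activity scores, fold enrichment over the plasmid, library coverage and every list that used the LIF cells are therefore given as a description, with no test. Binding of the retinoic acid receptor RARA was a separate readout and was tested.

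Enhancers are stretches of DNA that raise transcription of a gene, often from a distance, when transcription factors bind them. Several can lie near one another in the same neighbourhood of the genome, and groups of strong enhancers are known in embryonic stem cells for lying near genes of cell identity. In a reporter assay each fragment is read outside its own neighbourhood, on a plasmid, so a cluster shows which pieces of a region are active one by one. RARA binds DNA as a heterodimer with RXR and activates transcription when retinoic acid (RA) is bound, and RA pushes embryonic stem cells to differentiate, whereas the cytokine LIF keeps them pluripotent.

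The study used E14 cells, a feeder-free mouse embryonic stem cell line, and FAIRE-STARR-seq, in which open chromatin isolated by FAIRE is cloned into a reporter so that active fragments transcribe themselves. The fragments came from E14 cells treated with RA for 4 h, and the plasmid library was sequenced once as input. Cells took up the library in 3 biological replicates, each the sum of 4 transfections, and then received either LIF or, with LIF withdrawn, 1 µM RA for 4 h, giving 3 reporter RNA samples with LIF and 3 with RA. RARA ChIP-seq was done after 1 µM RA for 4 h, in 1 library with 1 input library, so binding in LIF cells was not measured. The labels name no genetic change in any group.

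Besides the mESC list the authors deposited lists of LIF-dependent regions, with more reporter signal with LIF than with RA, of RA-induced regions, with more signal with RA, of regions covered by the plasmid library (library regions) and of RARA peaks. The lists came from merged replicates. Neither single replicates nor read depth can be read from them, so regions were the units of every comparison, and the intervals on shares, all 95% Wilson intervals, cover counting error only. They do not cover the spread between cultures. Members of a cluster share a neighbourhood and sometimes a library fragment, so they are not independent of each other.

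Clusters were small. Of the 261 clusters, 242 were pairs with 484 members, 16 had 3 members (48 regions) and 3 had 4 members (12 regions). The median distance from a member to its nearest neighbour was 5948 bp, with quartiles at 2746 and 9632 bp and extremes of 384 and 12414 bp. A neighbour lay within 2.5 kb for 122 members (22.4%) and within 5 kb for 213 members (39.2%). From the start of the first member to the end of the last, clusters spanned 580 to 21673 bp, with a median of 6749 bp. In 8 clusters (3.07%) all members overlapped the same library region, so a single stretch of plasmid-covered DNA gave separate enhancer calls.

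The distance of 12500 bp divided a continuous range. Just inside it, the regions at chr11:102145925-102146312 and chr11:102158379-102158686 lay 12414 bp apart, with scores of 1.80 and 2.37. Also inside, chr2:152002895-152003357 (score 2.85, RARA peak, RA-induced) and chr2:152015360-152015692 (score 2.15, RARA peak) lay 12400 bp apart, and chr11:69715031-69715382 (score 2.10) had its neighbour at 12259 bp. Just outside, chr9:64116664-64117018 (score 2.95, RARA peak) and chr9:64129250-64129579 (score 2.41) lay 12574 bp apart. The regions chr3:87778335-87778542 (score 1.53) and chr3:87790955-87791191 (score 1.75, RARA peak, LIF-dependent) lay 12635 bp apart, and chr8:73034265-73034481 (score 3.25) was 12680 bp from its neighbour. Scores ran from 1.80 to 2.85 among the regions named inside the distance and from 1.53 to 3.25 among those named outside it.

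Clustered enhancers were spread unevenly over the chromosomes. Chromosome 11 held 70 of them in 32 clusters, 18.6% of its 377 mESC enhancers, and chromosome 7 held 66 in 32 clusters, 19.0% of 348. Chromosomes 19 (17.6%), 5 (16.4%) and 16 (15.5%) followed. The lowest shares were on chromosomes 13 (5.03%, 10 of 199), 10 (5.91%, 15 of 254) and X (6.35%, 8 of 126). Library coverage also differed between chromosomes: an mESC enhancer had a median of 21 library regions within 50 kb on chromosome 11, of 18 on chromosome 7, of 11 on chromosome 13 and of 5 on chromosome X. Chromosome 10 had few clusters at a median of 16 library regions, close to the median of 15 over the list.

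The 3 clusters of 4 show how differently members were placed and how unequal their scores were. The score is the activity value the authors deposited for each mESC enhancer. Its scale is not stated, and over the list it ran from 0.445 to 5.42. The tightest cluster, chr11:69392668-69395718, held 4 enhancers in 3051 bp with scores of 2.52, 2.52, 4.04 and 1.89 in genome order. Each of the 4 lay on a library region of its own, and the region under the highest score had the lowest library fold enrichment, 3.83 against 9.48, 5.06 and 9.45. RARA peaks lay at the first member (4.27-fold over the ChIP input) and at the third, highest-scoring member (1.89-fold). All fold enrichments given here are the authors' peak values.

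**Figure D1:**
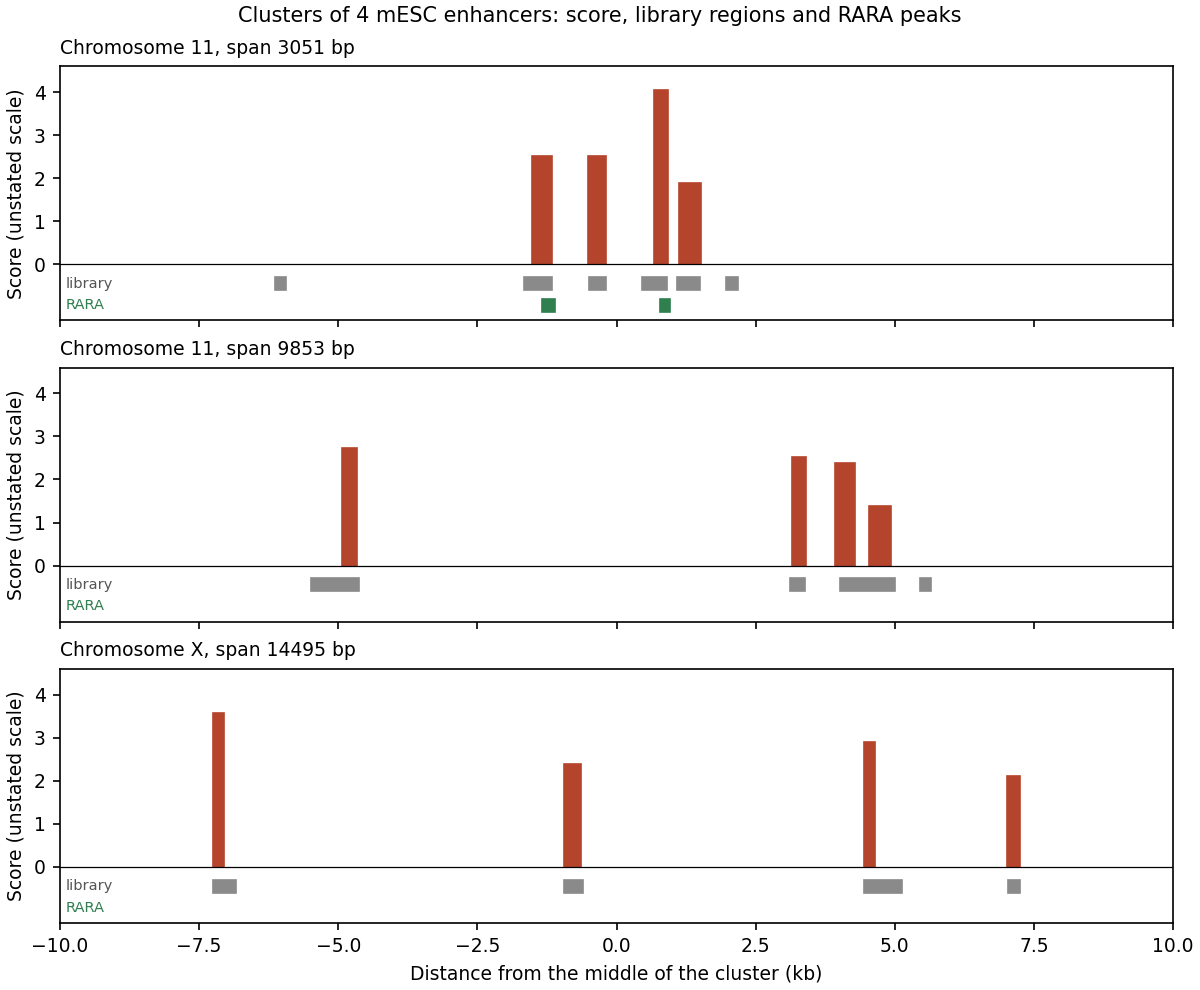
The 3 clusters of 4 mESC enhancers, with distance from the middle of the cluster in kb on the horizontal axis and the deposited score on the vertical axis. Red bars are the enhancers, drawn to their width, with library regions in grey and RARA peaks in green below; the scores within a cluster differ, and only the cluster that spans 3051 bp has RARA peaks.

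The cluster at chr11:106640766-106650618 spanned 9853 bp, with 1 member of score 2.74 standing 8074 bp from a group of 3 with scores of 2.52, 2.39 and 1.38. The last 2 of these lay on the same library region. On the X chromosome, chrX:47943983-47958477 held members of score 3.57, 2.39, 2.90 and 2.11 that were 2590 to 6360 bp apart, each on its own library region. Neither of these clusters had an RARA peak, and none of the 12 members of the clusters of 4 was listed as changed between LIF and RA.

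Summed over members, the highest scores belonged to those 3 clusters, to a cluster of 3 and to a pair. The cluster chr15:102070902-102081332 had scores of 2.64, 3.75 and 2.40, and RARA peaks at its outer members (2.60-fold and 5.03-fold) but not at the middle one, where the score was highest. The pair chr7:127743492-127752344 had scores of 4.30 and 4.00, both far above the median of the list. It had no RARA peak, and neither member was listed as changed between LIF and RA. Its members lay on weakly enriched library regions (3.61-fold and 4.00-fold).

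Clustered enhancers had no higher scores at the median than solitary ones. Their median score was 2.43 (95% order-statistic interval 2.38 to 2.50), against 2.52 (2.50 to 2.55) for solitary enhancers. The difference was -0.093 (-0.147 to -0.026). With 1 member per cluster it was -0.095 (-0.19 to 0.004), and with neighbours joined within 25 kb it was -0.056 (-0.113 to -0.011). Brackets on these differences carry the interval of the clustered median only, with the solitary median held fixed. Scores of clustered members ran from 0.678 to 4.76. Among them 22.2% had a score in the upper quartile of the list, against 25.4% of solitary enhancers. By cluster size the medians were 2.46 in pairs, 2.21 (2.03 to 2.49) in clusters of 3 and 2.52 in clusters of 4, with no order by size. Fold enrichment over the plasmid library had medians of 8.36 in clustered and 8.67 in solitary enhancers, and widths had medians of 314 and 313 bp. On the library side the groups differed more: the library region under a clustered enhancer had a median fold enrichment of 11.1 (10.5 to 11.7), against 13.1 (12.8 to 13.4) under a solitary one.

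The plasmid library was also the background of the enhancer calls, and scores were higher where library enrichment was low, in both groups. When the 4622 mESC enhancers on a library region were ranked by the fold enrichment of their library region and divided into 5 equal groups, the median score of clustered members was 2.70 in the lowest group and 2.10 in the highest. For solitary enhancers it was 2.89 and 2.26. In each of the 5 groups the clustered median was below the solitary one, the nearest being 2.35 against 2.41. The share clustered was 16.9% in the lowest group and 6.16% in the highest. Groups by the number of library regions within 50 kb did not keep that order of scores throughout. From fewest to most regions, clustered medians were 2.67, 2.67, 2.44, 2.43 and 2.39. Solitary medians were 2.70, 2.54, 2.48, 2.45 and 2.43, so the clustered median was the higher one with 9 to 13 regions.

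Scores differed widely within clusters. In the 242 pairs the score difference had a median of 0.628, with quartiles at 0.336 and 1.11 and extremes of 0.001 and 3.06. The lower-scoring member of a pair had a median of 2.12 and the higher-scoring member a median of 2.86. Over the 283 adjacent members within 12500 bp, the scores of neighbours had a correlation of r = -0.04. These pairs share library neighbourhood and, in larger clusters, members, so the value is a description. The median difference was 0.825 for the 63 neighbours within 2.5 kb, 0.714 for the 46 between 2.5 and 5 kb and 0.619 for the 174 between 5 kb and 12500 bp. Adjacent mESC enhancers that were too far apart to cluster differed by about as much, with medians of 0.606 (625 pairs, 12500 bp to 50 kb), 0.577 (1298 pairs, 50 to 200 kb) and 0.621 (1703 pairs, 200 to 1000 kb). In 89 of 234 pairs with distinct library values (38.0%, 32.1 to 44.4%) the member of higher score also had the higher library fold enrichment.

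**Figure D2:**
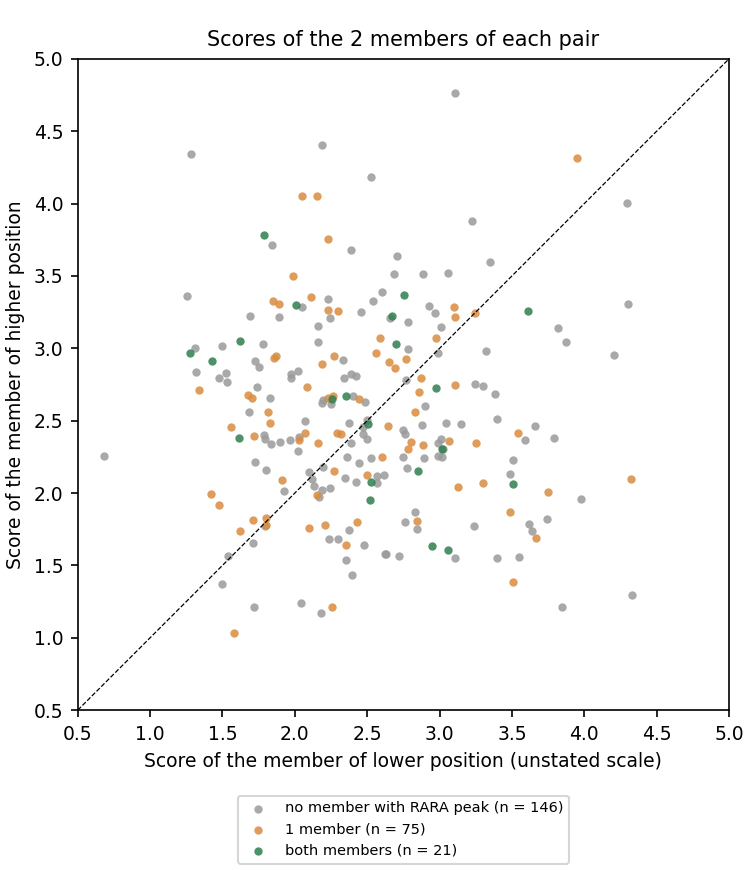
Scores of the 242 pairs, with the member of lower genome position on the horizontal axis and its neighbour on the vertical axis, both on the deposited scale. Each point is a pair, coloured by how many of its members overlap an RARA peak, and the dashed line marks equal scores; the points form a round cloud with no trend along the line.

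Larger clusters were as mixed. Over the 19 clusters of 3 or 4, the range between the highest and the lowest score was 0.723 to 2.15, with a median of 1.07. After the tight cluster on chromosome 11 (2.15), the widest ranges were at chr11:69476019-69486233 (2.06, 3.38 and 1.39), chr9:44215591-44227501 (2.91, 2.42 and 1.20), the cluster of 4 on the X chromosome and chr15:100094254-100111401 (2.03, 2.03 and 3.45). The most even scores were at chr2:152512466-152533710 (2.93, 2.21 and 2.90), a cluster of 21245 bp. Ranges of 0.790, 0.870, 0.893 and 0.911 followed at chr16:17911421-17929341, chr11:22496483-22508029, chr8:108375819-108384615 and chr5:145952342-145965509.

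The closest neighbours show the same spread at very short distance. At chr2:28695798-28696377 a pair of midpoints 384 bp apart, on the same library region, had scores of 2.89 and 2.24. At chr8:124473922-124474676 the members were 470 bp apart, again on a shared library region, and scored 2.68 and 3.51. The pair at chr1:84886630-84887425 was 515 bp apart and scored 2.13 and 2.05, on library regions of 3.55-fold and 11.6-fold enrichment. Next came the last 2 members of the tight chromosome 11 cluster, 520 bp apart with scores of 4.04 and 1.89. At chr17:24388285-24389079 the members were 532 bp apart on a shared library region, and the first (score 1.69) was LIF-dependent by 4.99-fold while the second (score 2.56) was in neither list of changed regions.

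Clustered enhancers lay in DNA that the library covered densely. A clustered enhancer had a median of 21 library regions within 50 kb (20 to 21), against 15 (14 to 15) for a solitary one, a ratio of 1.40. Each clustered count includes the library region of the neighbour, so the regions that hold no mESC enhancer were also counted: their medians were 18 (17 to 19) and 13 (13 to 14). Within 12500 bp the medians of all library regions were 6 and 4, and within 200 kb 69 and 53. When mESC enhancers were divided into 5 groups by the number of library regions within 50 kb, the share clustered was 3.03% with 0 to 8 regions, 5.30% with 9 to 13, 12.2% with 14 to 18, 17.2% with 19 to 22 and 22.8% with 23 to 38. Every clustered enhancer overlapped a library region, against 98.7% of solitary ones.

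Dense coverage did not mean that every covered piece was active. The spans of the 261 clusters overlapped 784 library regions, and 247 of them (31.5%) held no member. At least 1 such inactive library region lay within the span of 131 clusters (50.2%), and the largest number in a cluster was 5. Inactive here means only that the region was not in the list of mESC enhancers. Each span begins and ends at a member, so the 31.5% is set in large part by how spans were drawn. It is not the share of inactive regions in the library, which held 186959 regions against 4674 mESC enhancers. Within 50 kb of a clustered enhancer the medians were 21 library regions in all and 18 without an mESC enhancer.

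RARA peaks overlapped clustered enhancers more often than solitary ones. After RA, 133 of 544 clustered enhancers (24.4%, 21.0 to 28.2%) overlapped an RARA peak by at least 1 bp, against 733 of 4130 solitary enhancers (17.7%, 16.6 to 18.9%). Over all mESC enhancers the share was 18.5%. The odds ratio was 1.50 (95% interval 1.20 to 1.86, two-sided Fisher's exact test, adjusted p = 0.000263 by Benjamini-Hochberg over 2 tests). With 1 member per cluster it was 1.41 (1.03 to 1.91, Fisher's exact test, adjusted p = 0.0251). The odds ratio was smaller among enhancers of like library coverage: within the 5 groups of library regions within 50 kb it was 1.28 (1.03 to 1.59, Mantel-Haenszel chi-square test, adjusted p = 0.0287), and 1.31 (adjusted p = 0.0150) within groups of library regions that hold no mESC enhancer. In the same chi-square test the call was lost within groups of library regions within 12500 bp (1.23, adjusted p = 0.0775), within chromosome and library group together (1.22, adjusted p = 0.0862) and with 1 member per cluster within library groups (1.20, adjusted p = 0.258). These last 3 groupings, and the one by regions without an mESC enhancer, were chosen after the data were seen.

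Among enhancers with a peak, median RARA enrichment was close in both groups. The median was 3.38-fold over the ChIP input (3.13 to 3.92) at 133 clustered and 3.41-fold (3.30 to 3.50) at 733 solitary enhancers. Peaks were at 29.2% of the members of clusters of 3 (14 of 48) and at 2 of the 12 members of clusters of 4. By chromosome, 23 of 70 clustered enhancers overlapped an RARA peak on chromosome 11, 13 of 31 on chromosome 2 and 12 of 66 on chromosome 7, while chromosomes 8 (3 of 32) and 17 (3 of 30) had few.

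**Figure D3:**
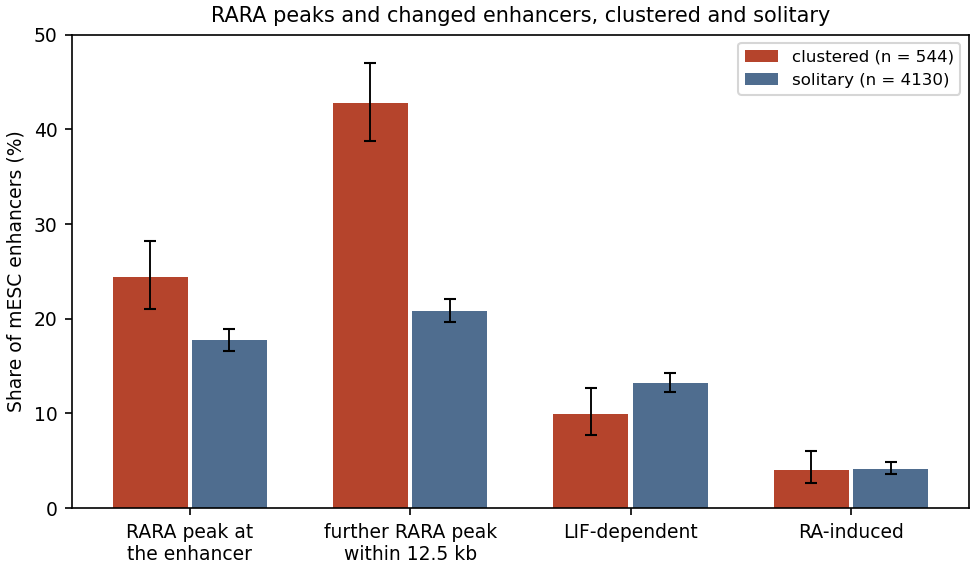
Share of clustered (red, n = 544) and solitary (blue, n = 4130) mESC enhancers, in percent on the vertical axis, that overlap an RARA peak, have a further RARA peak within 12500 bp, or overlap a LIF-dependent or an RA-induced region. Error bars are 95% Wilson intervals; the clustered bar stands above the solitary bar for both RARA measures, at 24.4% against 17.7% and 42.8% against 20.8%.

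The surroundings of clustered enhancers held more RARA peaks too. Counting only RARA peaks that overlapped no mESC enhancer at all, 233 of 544 clustered enhancers (42.8%, 38.7 to 47.0%) had a peak summit within 12500 bp, against 861 of 4130 solitary enhancers (20.8%, 19.6 to 22.1%). The share over all mESC enhancers was 23.4%. The odds ratio was 2.84 (2.35 to 3.44, Fisher's exact test, adjusted p = 1.53e-26), and 1.91 (1.57 to 2.32, Mantel-Haenszel chi-square test, adjusted p = 3.23e-10) within the 5 groups of library regions within 50 kb. Members of a cluster can count the same peak, and with 1 member per cluster the odds ratio was 3.04 (Fisher's exact test, adjusted p = 4.15e-16). At least 2 further peaks were near 100 clustered and 266 solitary enhancers, and the largest number was 7 in both groups.

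The further peaks near clusters had no higher enrichment at the median. The 234 peaks near clustered enhancers had a median enrichment of 2.87-fold, the 1245 near solitary enhancers 3.00-fold, and all 8892 RARA peaks at no mESC enhancer 3.04-fold. A library region was overlapped by 52.6%, 53.7% and 51.3% of them. None of the 12 members of clusters of 4 had a further peak (upper Wilson limit 24.2%), whereas 25 of the 48 members of clusters of 3 did (52.1%). Between the outer ends of a cluster, and at none of its members, 59 RARA peaks lay in 47 clusters (18.0%).

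Both RARA measures rose with library coverage in solitary enhancers. In clustered ones the share with a peak at the enhancer had no steady order, and the share with a further peak dipped before it rose. In solitary enhancers the share with an RARA peak at the enhancer was 13.3%, 16.5%, 17.4%, 18.8% and 25.4% over the 5 groups of rising library coverage, and in clustered ones 25.0%, 27.7%, 19.5%, 22.3% and 28.3%. The clustered share was higher in each group, but the clustered and solitary intervals overlapped in each. For further peaks the solitary shares were 7.71%, 13.6%, 20.7%, 30.3% and 40.8%, and the clustered shares 25.0%, 19.1%, 25.8%, 43.9% and 61.6%. In the group with 23 to 38 library regions the intervals of the further-peak shares (54.7 to 68.1% clustered, 37.1 to 44.5% solitary) did not overlap.

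**Figure D4:**
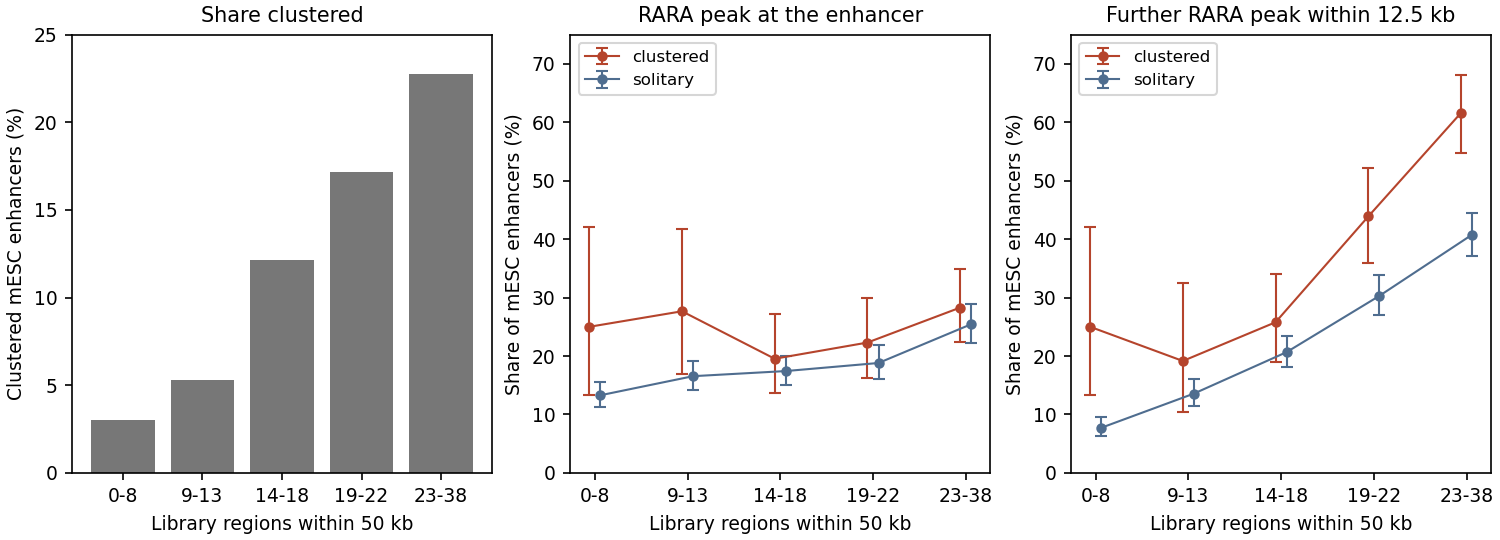
mESC enhancers in 5 groups by the number of library regions within 50 kb (horizontal axes): the percent clustered, and the percent of clustered (red) and solitary (blue) enhancers with an RARA peak at the enhancer or a further peak within 12500 bp. Error bars are 95% Wilson intervals; the share clustered goes from 3.03% to 22.8%, and for further peaks the red and blue intervals are apart with 0 to 8, 19 to 22 and 23 to 38 library regions.

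With 24.4% of clustered members bound, most clusters had no bound member. Where RARA was found, bound and unbound members usually lay side by side. Adjacent mESC enhancers 12500 bp to 50 kb apart had the same order, with none bound in 408 of 625 pairs, 1 in 184 and both in 33. No member overlapped an RARA peak in 155 clusters (59.4%), 1 member did in 80 (30.7%), 2 members in 25 (9.58%) and 3 members in 1. Of the 63 adjacent pairs within 2.5 kb, both members were bound in 11, 1 member in 20 and none in 32. Counted per member, so that a pair with both bound enters from each side, 52.4% of the 42 neighbours of a bound member were bound, against 23.8% of the neighbours of an unbound member. In 2 of those pairs the members overlapped the same RARA peak, and without these pairs the share was 47.4% of 38. At 2.5 to 5 kb the shares were 19.0% and 23.9%, and at 5 kb to 12500 bp 29.3% and 19.4%. Beyond the clusters, at 12500 bp to 50 kb, they were 26.4% and 18.4%. The 2 pairs that shared a peak, named after their values were seen, were chr17:36053155-36056216 and a pair on chromosome 18 with a peak of 6.17-fold.

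**Figure D5:**
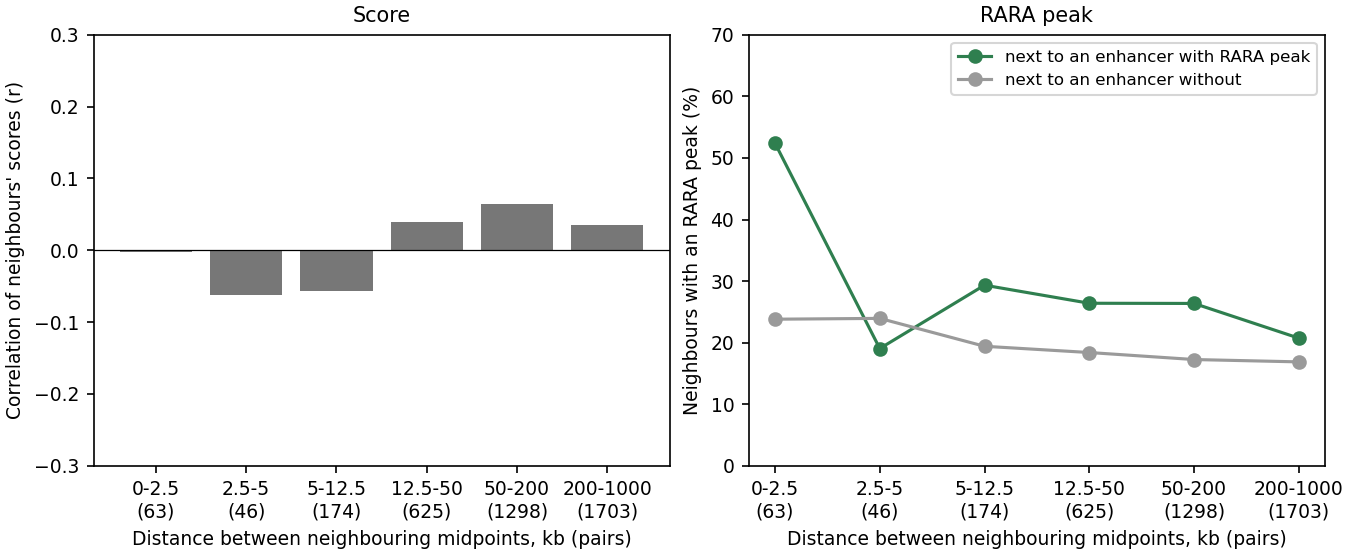
Adjacent mESC enhancers by the distance between their midpoints in kb (horizontal axes, number of pairs in brackets): the correlation r of their scores, and the percent with an RARA peak next to an enhancer with a peak (green) or without (grey). Clustered enhancers are in the 3 leftmost classes; r stays close to 0 at every distance, and the green point is highest, at 52.4%, within 2.5 kb.

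By number of bound members and then by peak strength, 5 clusters came first. The cluster chr7:3206543-3213886 was the only one with 3 bound members (RARA 5.64-fold, 2.69-fold and 3.13-fold). Its scores were low, at 2.06, 1.23 and 2.21, and its first member was LIF-dependent by 5.73-fold. The pair chr2:20589934-20591478 held the strongest RARA peak of any clustered enhancer, 28.0-fold, at a member of score 2.97 that was RA-induced by 7.22-fold. Its neighbour, 993 bp away, had a peak of 3.98-fold and a score of 2.73 and was in neither list of changed regions. The pair chr2:172342002-172347030 had peaks of 3.17-fold and 22.2-fold at scores of 2.26 and 2.65, with neither member listed as changed between LIF and RA. In chr4:141121234-141126335 both members had strong peaks (12.2-fold and 17.7-fold), and 4 further RARA peaks lay near each. The last, chr11:95171473-95173103, had peaks of 2.26-fold and 7.30-fold at scores of 2.53 and 2.08.

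Scores of bound and unbound members lay close together, and their difference was not tested. The medians were 2.52 (2.38 to 2.67) for 133 bound and 2.41 (2.35 to 2.48) for 411 unbound clustered enhancers. Among solitary enhancers they were 2.58 (2.49 to 2.62) and 2.52 (2.49 to 2.55). In clusters of 3 or 4 the order was the other way, with 2.31 for 16 bound and 2.37 for 44 unbound members. In the 75 pairs with exactly 1 bound member, the bound member had the higher score in 45 (60%, 48.7 to 70.3%), with medians of 2.50 and 2.27. It had the higher library fold enrichment in 39 of the 75. These scores come from LIF cells and the binding from RA-treated cells.

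Few clustered enhancers were listed as changed between the treatments. LIF-dependent regions overlapped 54 clustered enhancers (9.93%, 7.69 to 12.7%) and 546 solitary ones (13.2%, 12.2 to 14.3%). The share over all mESC enhancers was 12.8%, and the odds ratio was 0.723 (0.528 to 0.975), given with no test. RA-induced regions overlapped 22 clustered (4.04%, 2.69 to 6.05%) and 173 solitary enhancers (4.19%, 3.62 to 4.84%), with 4.17% over all mESC enhancers and an odds ratio of 0.964 (0.583 to 1.52). With 1 member per cluster the odds ratios were 0.9501 (0.632 to 1.39) for LIF-dependent and 1.20 (0.617 to 2.14) for RA-induced regions, and with neighbours joined within 5 kb the LIF-dependent odds ratio was 1.07. The lower LIF-dependent share of clustered enhancers was thus small or not seen in those counts. Both lists share the LIF samples with the mESC list. None of the 60 members of clusters of 3 or 4 was RA-induced (upper Wilson limit 6.02%), and 3 of them were LIF-dependent.

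Over the 5 groups of rising library coverage the LIF-dependent share of solitary enhancers was 18.4%, 13.3%, 10.7%, 10.1% and 11.8%, and that of clustered ones 9.38%, 8.51%, 9.38%, 8.63% and 11.6%. The clustered share was below the solitary one in each group, by most in the group with fewest library regions and by least in the group with most, which held 198 of the 544 clustered enhancers. Where they overlapped a changed region, its fold between treatments had medians of 4.76 (4.23 to 5.31) in clustered and 5.39 (5.07 to 5.59) in solitary LIF-dependent enhancers. For RA-induced enhancers the medians were 5.40 (3.89 to 6.86) and 4.39 (4.14 to 4.70).

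Few clusters held more than 1 changed member, at member shares of 9.93% LIF-dependent and 4.04% RA-induced. Of the 283 adjacent pairs within 12500 bp, both members were LIF-dependent in 4 and both RA-induced in 1. The counts were 9 and 1 of 625 pairs at 12500 bp to 50 kb, so this was not particular to clusters. In 192 clusters (73.6%) no member was listed as changed. Of the 69 others, 46 had 1 LIF-dependent member and 4 had 2, while 20 had 1 RA-induced member and 1 had 2. Members of opposite direction met in 2 clusters, both on chromosome 4. In chr4:137990399-138001169 the first member (score 2.65) was LIF-dependent by 4.41-fold with no RARA peak, and the second (score 2.46), 10443 bp away, was RA-induced by 4.71-fold with a peak of 10.9-fold. In chr4:141121234-141126335 the first member (score 3.51) was LIF-dependent by 3.50-fold and the second (score 2.06), 4636 bp away, RA-induced by 6.86-fold, and both had the RARA peaks given above.

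Clusters with 2 members changed in the same direction were named after their values were seen. The pair of RA-induced members was chr2:29675880-29682974, with 3.09-fold and 2.92-fold and nearly equal scores of 3.25 and 3.25. LIF-dependent pairs lay at chr1:53806826-53808048 (4.81-fold and 12.0-fold), chr2:143735045-143741255 (4.91-fold and 4.26-fold) and chr3:88375761-88377095 (7.75-fold and 4.23-fold), and on chromosome 18 (6.70-fold and 3.69-fold). The pair on chromosome 2 had a score gap close to the widest of any pair, 4.33 against 1.30, at similar folds between the treatments.

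In pairs with 1 changed member, neither list had a clear direction of score in LIF cells. The LIF-dependent member had the higher score in 26 of 43 pairs (60.5%, 45.6 to 73.6%), with medians of 2.78 and, for its neighbour, 2.43. The RA-induced member had the higher score in 6 of 20 (30.0%, 14.5 to 51.9%), with medians of 2.45 and 2.65. Both lists and the score rest on the LIF samples, so these counts are a description and were not tested, and both intervals include 50%.

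RARA peaks were frequent at RA-induced enhancers over the whole list, at 87 of 195 (44.6%), against 106 of 600 LIF-dependent ones (17.7%). Of the 22 RA-induced clustered enhancers 14 (63.6%, 43.0 to 80.3%) overlapped an RARA peak, against 73 of 173 solitary ones (42.2%, 35.1 to 49.6%). Of the 54 LIF-dependent clustered enhancers 18 did (33.3%, 22.2 to 46.6%), against 88 of 546 solitary ones (16.1%, 13.3 to 19.4%). These differences were not tested. The clustered and solitary intervals overlapped for RA-induced enhancers and did not overlap for LIF-dependent ones, and they cover counting error only. Among enhancers in neither list of changed regions the shares were 21.6% of 468 clustered and 16.8% of 3411 solitary enhancers.

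A further 187 RA-induced regions overlapped no mESC enhancer, of which 3 (1.60%) had a clustered enhancer within 12500 bp and 22 (11.8%) a solitary one. Clustered enhancers were 11.6% of the mESC list (544, against 4130 solitary), so 3 regions against 22 shows nothing particular to clusters. The 3, named after their values were seen, were chr11:69734843-69735258 (3.50-fold), chr7:52815706-52815986 (3.66-fold) and chr8:111253190-111253390 (4.91-fold). The latter pair overlapped RARA peaks, and none of the 3 nearest clustered members did.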

How the data were processed

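The tools named in the submitters' processing notes were MACS2, Bowtie2, SAMtools, UMI-tools and deepTools, and the build was mm9; their settings are not given in the sources used. The authors deposited peak lists with a fold enrichment (a ratio) and −log10 p and q values per peak. A further deposited table gave the score of each mESC enhancer, of unstated scale. Rows sharing a region were collapsed to the highest −log10 q: 4674 of 4787 mESC rows, 601 of 616 LIF-dependent, 382 of 386 RA-induced, 186959 of 195417 library and 9757 of 11366 RARA rows. Overlap meant at least 1 bp.

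Distances ran between midpoints, or from a midpoint to an RARA summit. Shares of RARA peaks were compared by two-sided Fisher's exact tests over regions, adjusted by Benjamini-Hochberg over 2 tests, or by Mantel-Haenszel chi-square tests in strata, at an adjusted p of 0.05. The computations were tested on simulated data. Computations ran in Python 3.11.15 with SciPy 1.17.1, statsmodels 0.14.6, pandas 2.3.3, NumPy 2.4.6 and Matplotlib 3.10.9. Alternatives changed the joining distance, overlap, RARA strength, cluster size, strata and chromosomes.

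Members, lists and tests were chosen with earlier results of these data known. Regions were named by rule: clusters of 4 or more members, the 5 clusters of highest summed score, those with both directions of change, the 5 with most RARA-bound members, the 5 widest and the 5 narrowest score ranges among clusters of 3 or more, the 5 closest neighbours, and the 5 regions on each side of the distance. Coordinates are mm9, counted from 1. The reference at hand was of another assembly, GRCm38, so genes and sequences near the clusters are not used here.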

Additional observations from a re-analysis of the deposited data

How the results depend on the processing

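No paired analysis was possible because the lists came from merged replicates and hold no value per replicate; for the same reason no replicate could be left out. Of the 36 alternatives for each RARA measure, 20 left out 1 chromosome each and so kept most regions. The odds ratio for an RARA peak at the enhancer lay between 1.20 and 1.82 over the 36 and kept its call in 32, among them all 20 of these. It lost the call in clusters of 3 or more (1.68, Fisher's exact test, adjusted p = 0.0879) and, by chi-square tests in strata chosen after seeing the data, by library regions within 12500 bp (1.23, adjusted p = 0.0775), by chromosome and library regions within 50 kb (1.22, adjusted p = 0.0862) and with 1 member per cluster in library strata (1.20, adjusted p = 0.258). For further RARA peaks it lay between 1.77 and 4.44 and kept its call in all 36. Leaving out each chromosome in turn gave 1.41 to 1.58 and 2.67 to 2.99. With neighbours joined within 5 kb there were 213 members and a LIF-dependent odds ratio of 1.07, the other side of 1. Joining within 25 and 50 kb gave 944 and 1583 members and library ratios of 1.50 and 1.54. Clusters of 3 or more gave a score difference of -0.156, odds ratios of 0.346 (LIF-dependent) and 0.0 (RA-induced) and a library ratio of 1.53. That ratio was 1.50 without chromosome 7, 1.43 without chromosome 11, 1.50 for library regions within 12500 bp and 1.30 within 200 kb. Without single chromosomes the LIF-dependent odds ratio was 0.672 to 0.789, the RA-induced one 0.810 to 1.06, on both sides of 1, and the score difference -0.1135 to -0.068. That difference shrank to -0.061 (-0.163 to 0.041) at 5 kb, -0.056 (-0.113 to -0.011) at 25 kb and -0.063 (-0.112 to -0.024) at 50 kb. With 1 member per cluster it was -0.095 (-0.19 to 0.004). On another scale, log2 fold over the plasmid, the medians differed by -0.051 (-0.134 to -0.00064). All these brackets hold the solitary median fixed. The causes were not tested. Depth is unknown, so the precision of single peak values cannot be given.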
